A study of Mus musculus with 18 samples.

Results

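The genes described are 10 markers of the mouse airway lining: 7 of ciliated cells (Foxj1, Dnah5, Dnah9, Ccdc39, Rsph1, Tekt1 and Tppp3) and 3 of club cells (Scgb1a1, Scgb3a2 and Cyp2f2). They were chosen as known markers, by gene name, out of the 23284 gene symbols in the deposited mouse tables, with earlier results of these data known. Of the 10, 8 were found under their own symbol, and Dnah5 and Dnah9 were found under their older symbols Dnahc5 and Dnahc9. The series measured RNA by sequencing in mouse lung, in memory Th2 cells (a class of helper T cell) and in eosinophils, with 18 samples in 6 groups. The main comparison was between lungs of wild-type BALB/c mice given OVA, the model allergen ovalbumin (3 libraries) and lungs of BALB/c mice labelled as the knockout strain dGATA, also given OVA, the model allergen ovalbumin (3 libraries). The labels do not spell out the dGATA allele. The series' design text names HDM (house dust mite) for the lung where the sample labels name OVA, and there was no lung group without OVA among the samples. The second comparison was between memory Th2 cells with high ST2, the receptor of the cytokine IL-33, kept for 3 days with IL-2 alone (3 libraries) or with IL-2 plus IL-33 (3 libraries), also of BALB/c origin. The eosinophil tables carried human gene symbols and were not used here. Nothing in the labels says that libraries of a group came from separate animals, so the p-values cover the spread among these libraries alone, which may be technical.

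Ciliated cells and club cells together line the conducting airways of the mouse lung. Ciliated cells beat mucus out of the airway with motile cilia, whose core of microtubule doublets carries dynein motor arms, radial spokes and regulatory complexes, and FOXJ1 with the RFX transcription factors switches on the genes for these parts. Club cells secrete small proteins of the secretoglobin family onto the airway surface, metabolise inhaled chemicals with cytochrome P450 enzymes, and can renew both themselves and ciliated cells. Allergic inflammation of the airway is known for turning secretory cells towards mucus-making goblet cells.

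Because RFX and FOXJ1 proteins act at the promoters of ciliary genes, the 100 bases before the annotated start of the 4 ciliated members with a promoter in the RefSeq table (build GRCm38.p6) are shown 5′ to 3′ on the gene's strand, at chr11:72361883-72361982 (minus strand) for Tekt1, chr11:66168552-66168651 (minus strand) for Dnah9, chr15:28203666-28203765 (plus strand) for Dnah5 and chr3:33844311-33844410 (minus strand) for Ccdc39. Capitals mark the letters that matched a searched motif.
Tekt1: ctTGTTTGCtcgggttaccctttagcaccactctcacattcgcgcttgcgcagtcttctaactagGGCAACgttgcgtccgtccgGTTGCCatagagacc
Dnah9: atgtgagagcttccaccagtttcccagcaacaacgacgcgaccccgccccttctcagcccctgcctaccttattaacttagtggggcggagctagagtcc
Dnah5: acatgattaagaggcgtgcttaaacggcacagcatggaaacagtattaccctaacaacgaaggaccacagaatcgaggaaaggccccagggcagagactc
Ccdc39: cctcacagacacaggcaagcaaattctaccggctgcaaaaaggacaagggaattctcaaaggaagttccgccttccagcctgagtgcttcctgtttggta

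The motifs were searched on both strands over the whole 300-base window of each promoter, and overlapping matches were allowed. They were GTTGCC (one arm of the RFX X-box), GTTNCC and GGNAAC separated by 0 to 3 letters (an X-box pair), the forkhead cores TGTTTAC and TGTTTGC, and CTCAAG (a core of NKX2-1, a lung epithelial factor). In Tekt1, which encodes a filament protein of the ciliary doublets, GTTGCC lay on the minus strand at positions -35 to -30 and on the plus strand at -15 to -10 from the start, and TGTTTGC lay at -98 to -92. A second Tekt1 promoter in the table, with its start 584 bases from that of the deposited gene, held none of these letters. The windows of Dnah9, Dnah5, Ccdc39 and Cyp2f2 held none either, which says nothing of whether the factors act there. The RefSeq gene begins further upstream for Dnah5 (chr15:28154854) and for Tekt1 (chr11:72362442), and no window at those positions was searched. Over the 27025 genes of the promoter table, 14.1% had a window with GTTGCC, against 36 of the 64 ciliary genes listed for comparison that had a promoter (56.2%). The X-box pair was in 0.936% of all genes and in 3 of the 64. TGTTTAC was in 4.05% of all genes and 5 of the 64, TGTTTGC in 5.76% and again 5, and CTCAAG in 18.0% and 11. A match is a description of the letters and not a measured binding site.

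All values are FPKM, the authors' estimate of fragments scaled by transcript length and by the number of mapped fragments in the library. Fold changes and tests use log2(FPKM + 1), fitted with limma over the 13727 genes that reached 1 FPKM in 3 or more of the lung libraries. The tables hold no counts. Relative depth was read from the most frequent ratio to the first library over genes with low nonzero values, below 0.2 FPKM in both. It takes such values to stand for equal numbers of fragments. By this measure the lung libraries were at 0.58 to 1 of the first wild-type library and the Th2 libraries at 0.67 to 1.34 of the first one. Ccr3, an eotaxin receptor of eosinophils, was at 5.69, 5.88 and 4.53 FPKM in the wild-type lungs and at 0.0493, 0.252 and 0.0729 in the dGATA lungs, so the libraries differed in an eosinophil marker as the strain labels separate them. The lung identity of the 6 libraries was visible in Sftpc, the alveolar surfactant protein C, at 18846 to 26129 FPKM.

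None of the 10 airway genes differed between dGATA and wild-type lungs at an adjusted p below 0.05 in limma, and none had an unadjusted p below that value. All 10 passed the filter on low values. Over all 13727 genes, 6 were higher and 7 lower in dGATA lungs, which is 0.0947% of the genes tested, so a count of 0 among 10 genes is near what this background gives. At an unadjusted p below 0.05 there were 939 genes. The estimates of 9 of the 10 airway genes lay above 0 with a median log2 difference of 0.24, beside a median of -0.03 and a share above 0 of 40.9% over all genes tested. Without wild-type library 3, 6 of the 10 were above 0 and their median was 0.13, and without dGATA library 3 these were 8 and 0.16. In whole-lung RNA, a change in the number of cells of a type and a change in RNA per cell cannot be told apart.

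**Figure D1:**
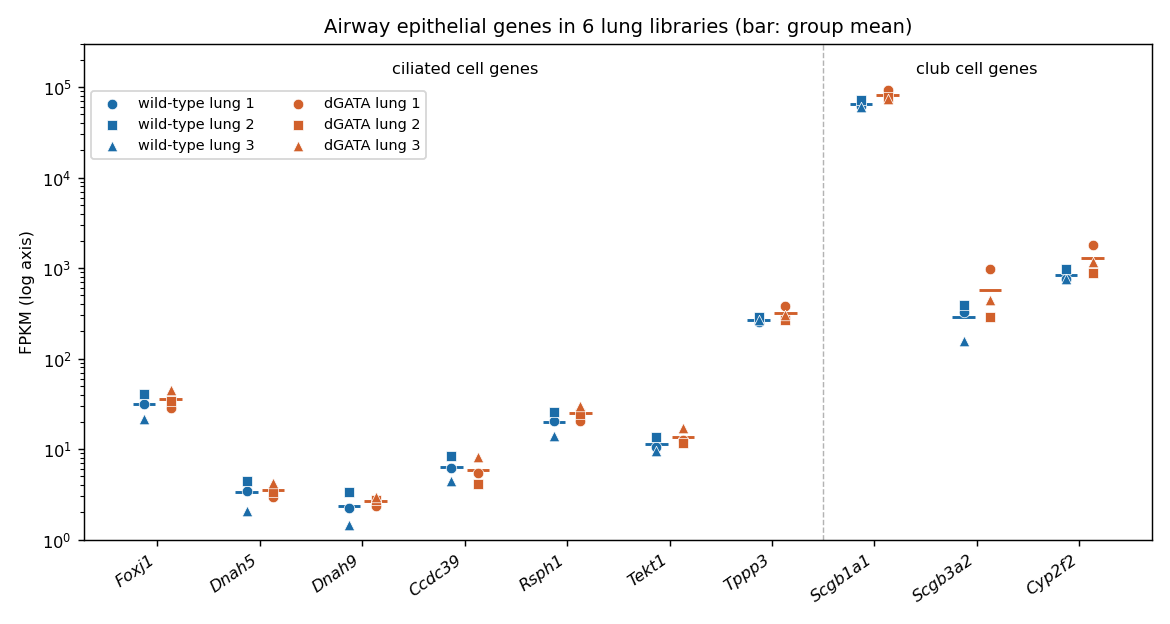
FPKM on a log axis of each of the 10 genes in the 6 lung libraries, with a bar at the mean of each group of 3. The points of wild-type and dGATA lungs are interleaved for every gene except Scgb1a1, whose 3 dGATA libraries (73776 to 92706) lie above the 3 wild-type libraries (60817 to 72846).

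The levels in wild-type lungs spanned more than 4 orders of size per transcript length. Scgb1a1 stood far above the others at 65074 FPKM, followed by Cyp2f2 at 830, Scgb3a2 at 290, Tppp3 at 269, Foxj1 at 31.2, Rsph1 at 20.1, Tekt1 at 11.3, Ccdc39 at 6.31, Dnah5 at 3.32 and Dnah9 at 2.34 (means, n = 3). The ranges of neighbours overlapped for Scgb3a2 and Tppp3, for Foxj1 and Rsph1, for Ccdc39 and Dnah5 and for Dnah5 and Dnah9. Scgb1a1, Cyp2f2, Tppp3, Rsph1 and Tekt1 were each set apart from the next gene below in the wild-type libraries. The same order held for the dGATA means, at 81525, 1281, 575, 316, 36.04, 25.01, 13.7, 5.89, 3.51 and 2.67 FPKM.

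Foxj1 encodes the master transcription factor of motile cilia (mm10 chr11:116330704-116335354, minus strand). It was at 31.6, 40.2 and 21.6 FPKM in wild-type libraries 1 to 3 and at 28.8, 33.8 and 45.5 in dGATA libraries 1 to 3. The lowest library was wild-type 3 and the highest dGATA 3, and the groups overlapped. The means were 31.2 ± 9.28 and 36.04 ± 8.56 FPKM (SD, n = 3 each), a log2 difference of 0.22 with a 95% interval of -0.40 to 0.84 (limma adjusted p = 0.922).

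Dnah5 and Dnah9 encode heavy chains of the outer dynein arms, the motors that set beat frequency. Dnah5 (chr15:28203766-28472045, plus strand) was at 3.43, 4.43 and 2.08 FPKM in wild-type and at 2.99, 3.34 and 4.19 in dGATA lungs. Dnah9 (chr11:65831324-66168551, minus strand) was at 2.24, 3.34 and 1.44 in wild-type and at 2.34, 2.72 and 2.95 in dGATA lungs. For both genes the highest and the lowest library were wild-type libraries 2 and 3, so the dGATA values lay inside the wild-type range. The group means of Dnah5 were 3.32 ± 1.18 and 3.51 ± 0.616 FPKM (log2 difference 0.09, interval -0.45 to 0.63, limma adjusted p = 0.964), and those of Dnah9 were 2.34 ± 0.953 and 2.67 ± 0.307 FPKM (0.17, -0.35 to 0.69, limma adjusted p = 0.931). The ratio of Dnah9 to Dnah5, which cancels library scaling, ranged only from 0.652 to 0.814 over the 6 lungs while each gene itself ranged more than 2-fold.

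Ccdc39 encodes a coiled-coil protein that, with CCDC40, acts as the ruler setting the spacing of inner dynein arms and spokes (chr3:33812361-33844310, minus strand). It was at 6.16, 8.37 and 4.39 FPKM in wild-type and at 5.47, 4.08 and 8.12 in dGATA lungs, with dGATA library 2 the lowest. It was the one airway gene of the 10 with an estimate below 0, at -0.09 on the log2 scale (interval -0.76 to 0.58, limma adjusted p = 0.970; means 6.31 ± 1.99 and 5.89 ± 2.05 FPKM). With each library left out in turn, the estimate ran from -0.31 (without dGATA library 3) and -0.29 (without wild-type library 3) to 0.11 (without wild-type library 2 or without dGATA library 2).

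Rsph1 encodes a protein of the radial spoke head, which relays signals from the central pair to the dynein arms (chr17:31255020-31277356, minus strand). It was at 20.4, 25.9 and 14.0 FPKM in wild-type and at 20.5, 24.7 and 29.7 in dGATA lungs. Its means were 20.1 ± 5.95 and 25.01 ± 4.61 FPKM, with a log2 difference of 0.33 and an interval of -0.25 to 0.90 (limma adjusted p = 0.850).

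Tekt1 (chr11:72344720-72361880, minus strand) was at 10.6, 13.7 and 9.50 FPKM in wild-type and at 12.5, 11.6 and 17.2 in dGATA lungs. Tppp3, a tubulin-binding protein abundant in ciliated cells (chr8:105467492-105471422, minus strand), was at 251, 289 and 265 in wild-type and at 379, 265 and 304 in dGATA lungs. The groups overlapped for both genes, and Tppp3 differed from the other 6 ciliated genes in having its highest value in dGATA library 1. The log2 difference was 0.26 for Tekt1 (interval -0.19 to 0.71, limma adjusted p = 0.846) and 0.22 for Tppp3 (-0.15 to 0.60, limma adjusted p = 0.843).

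**Figure D2:**
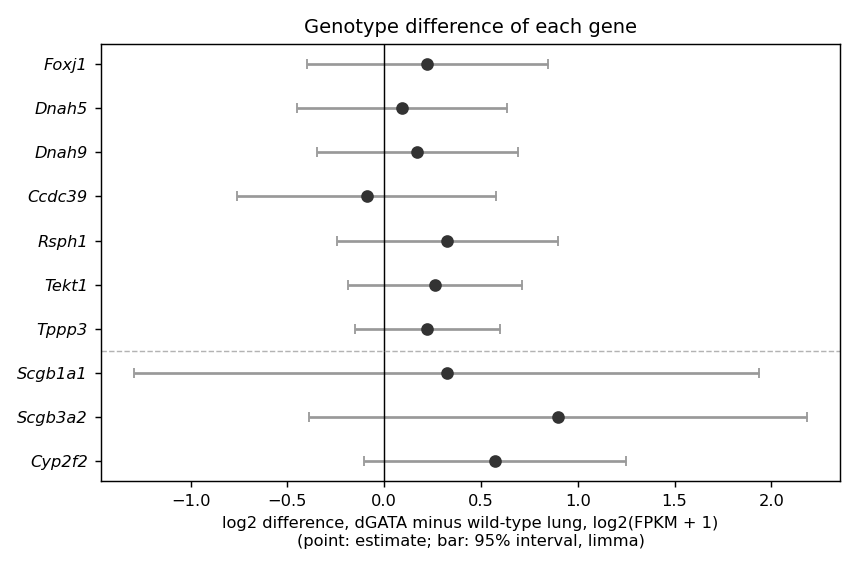
Difference between dGATA and wild-type lungs of each of the 10 genes on the log2(FPKM + 1) scale, with its 95% interval from limma (3 libraries per group). All intervals include 0, and the estimates run from -0.09 for Ccdc39 to 0.90 for Scgb3a2.

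Scgb1a1 encodes the main secretoglobin of club cells, also called CC10 or uteroglobin (chr19:9083642-9087956, minus strand). It was the gene with the highest FPKM in each of the 6 lung libraries, at 61558, 72846 and 60817 in wild-type and at 92706, 78094 and 73776 in dGATA lungs. It was the single airway gene of the 10 whose groups did not overlap, where 14.1% of all genes tested had groups that did not overlap. It made up between 11.99% and 14.52% of all summed FPKM in wild-type and between 13.6% and 17.9% in dGATA libraries. The means were 65074 ± 6741 and 81525 ± 9921 FPKM, with a log2 difference of 0.32 and a limma adjusted p of 0.959. An exact two-sided permutation test gave p = 0.1 for it, the smallest value that 3 against 3 libraries allow. The 95% interval of -1.29 to 1.94 came from a spread that limma fits as a trend over expression level, and without that trend, an alternative added after the data were seen, it was 0.02 to 0.63 (limma adjusted p = 0.708).

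Scgb3a2 encodes a second secretoglobin of airway epithelium and lies on the plus strand of chromosome 18. It was at 326, 389 and 155 FPKM in wild-type and at 988, 287 and 449 in dGATA lungs. It was the most variable of the 10 genes, with a 6.38-fold gap between its highest library, dGATA 1, and its lowest, wild-type 3. The means were 290 ± 121 and 575 ± 367 FPKM, and the log2 difference was 0.90 with an interval of -0.39 to 2.18 (limma adjusted p = 0.796). Leaving out dGATA library 1 brought the estimate to 0.41, and leaving out wild-type library 3 brought it to 0.50.

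Cyp2f2 encodes a club cell cytochrome P450 that activates naphthalene in the mouse lung (chr7:27119955-27133660, plus strand). It was at 760, 967 and 763 FPKM in wild-type and at 1796, 889 and 1158 in dGATA lungs, with dGATA library 2 inside the wild-type range. The means were 830 ± 119 and 1281 ± 466 FPKM, a log2 difference of 0.57 with an interval of -0.10 to 1.25 (limma adjusted p = 0.757). Without dGATA library 1 the estimate was 0.30. Exact two-sided permutation tests on the 10 genes gave p values between 0.1 and 0.9, and the lowest after Scgb1a1 was 0.2 for Cyp2f2.

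The ciliated genes varied together from library to library, apart from Tppp3, and the order of the libraries did not follow the strain. Wild-type library 3 was the lowest library for 5 of the 7, and the highest was wild-type library 2 for 3 genes, dGATA library 3 for 3 and dGATA library 1 for Tppp3. Averaged over the 7 genes after centring each on its own mean, the log2 level was -0.08, 0.25 and -0.43 in wild-type libraries 1 to 3 and -0.02, -0.05 and 0.32 in dGATA libraries 1 to 3. Libraries 2 and 3 of the wild type thus lay nearly as far apart as the lowest and the highest of all 6. The SD of Foxj1 over the 6 lungs was 0.36 on the log2 scale and became 0.15 once the mean of the other 6 ciliated genes was subtracted. For Dnah5 it went from 0.29 to 0.10, for Tekt1 from 0.28 to 0.12 and for Ccdc39 from 0.37 to 0.25. Tppp3 was the exception among the ciliated genes, with an SD that went from 0.21 to 0.33.

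The club genes had another order of libraries. The highest library was dGATA 1 for all 3 of them, at a mean centred log2 level of 0.87, and wild-type 3 was the lowest for Scgb1a1 and Scgb3a2, at a mean over the 3 genes of -0.63. Scgb3a2 amounted to 2.55 to 10.7 FPKM for each 1000 FPKM of Scgb1a1, and Cyp2f2 to 11.4 to 19.4, with dGATA library 1 at the top of both ranges. The same library had the lowest sum over the goblet cell list used as a check, 95.3 FPKM against 1877 and 1471 in the other dGATA libraries and 1099, 1129 and 328 in the wild-type libraries. Muc5ac, the inducible airway mucin of goblet cells, was at 0.534 FPKM in dGATA library 1 and at 15.1 and 19.6 in the other dGATA libraries, beside 10.7, 11.3 and 1.88 in wild-type. The summed leukocyte markers were also lowest in dGATA library 1, at 116 FPKM against 194 to 365 in the other 5 lungs. The sum over general epithelial markers was 612 to 695 FPKM in wild-type and 746 to 773 in dGATA lungs. That over alveolar type II markers was 26721 to 30392 and 30310 to 36123. Each of these sums was highest in dGATA library 1. Alveolar type I markers were also highest there, at 2970 FPKM against 1678 to 2448 in the other lungs. Cartilage markers were too, at 75.2 against 38.3 to 50.8. The peak in that library was thus not particular to the club genes. Basal airway markers summed to 56.8 FPKM in wild-type library 1 and to between 2.34 and 10.4 in the other lungs. The part of these other cell types in the airway gene levels was not tested.

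**Figure D3:**
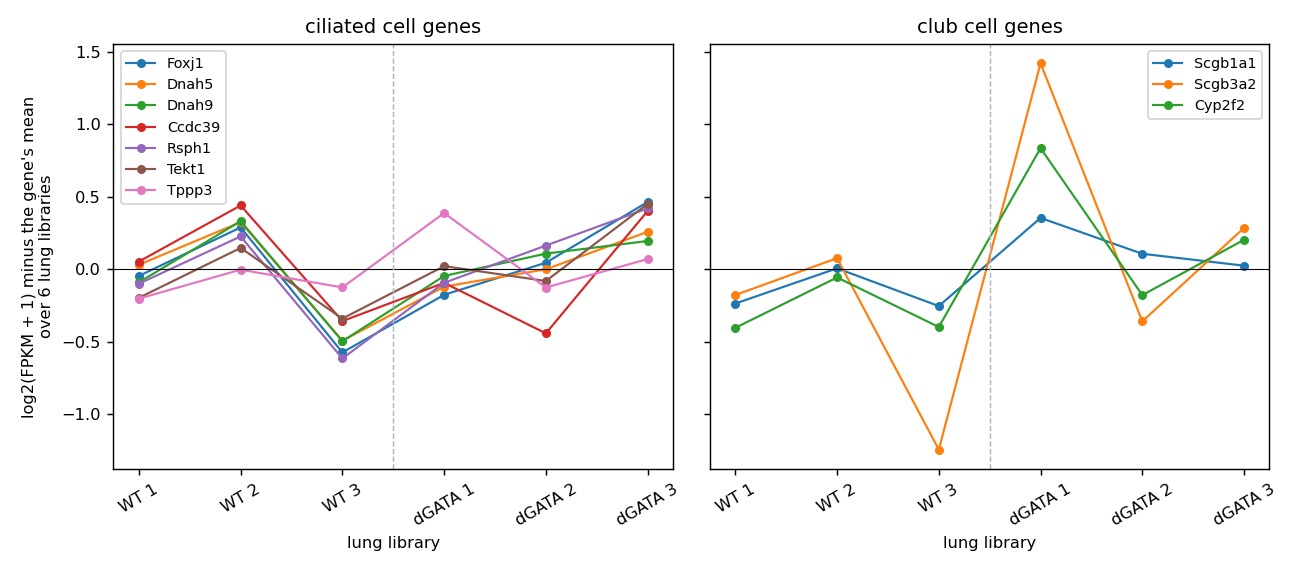
Centred log2(FPKM + 1) of the 7 ciliated genes (one panel) and the 3 club genes (the other panel) in the 6 lung libraries, with each gene centred on its own mean over the 6. The ciliated genes other than Tppp3 move together, with wild-type 3 low and wild-type 2 and dGATA 3 high, and all 3 club genes peak in dGATA 1.

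The genes whose pattern over the 6 lungs was most like the mean of the ciliated genes were Ccdc40, the partner of CCDC39, with a Pearson r of 0.995, followed by Spag16 (0.988), a central pair protein, Rsph4a (0.988), a spoke head protein, and Spag6 (0.986), another central pair protein. Clic6, Iqcd, Ccdc151 and Mfsd6l followed with r between 0.980 and 0.984, and 5 genes with clone or predicted names ranked among them. These correlations describe 6 libraries that share scaling and depth, so no p is given. Of 61 ciliary genes outside the 10 that were listed and tested, 40 had r above 0.8, with a median of 0.876, where the median over all 13727 genes was -0.0524 and 3.23% exceeded 0.8. The lowest were Spag1 (-0.126), a dynein assembly factor, Rfx1 (0.097), a transcription factor of the RFX family, Dnalc1 (0.151), a dynein light chain, and Rfx3 (0.309), another RFX factor. For the club genes the most alike were Naf1 (0.990), Itih2 (0.986), Ces1e (0.983), Rpe (0.975), Mycbp (0.975), Sult1d1 (0.975), Arntl (0.966) and Gfra1 (0.965). The club profile is an unscaled mean in which Scgb3a2 weighed most. Its SD over the 6 lungs was 0.87 on the log2 scale, against 0.47 for Cyp2f2 and 0.23 for Scgb1a1. The SD of Scgb1a1 went from 0.23 to 0.47 once the mean of the other club genes was subtracted. Of 33 listed club genes outside the 10, 6 had r above 0.8, among them Upk3a, Hp and Aldh1a1. The lowest were Pigr (-0.595), Muc5b (-0.1) and Sftpd (-0.055). The median over the 33 was 0.524, beside -0.0647 over all genes, of which 2.78% were above 0.8.

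**Figure D4:**
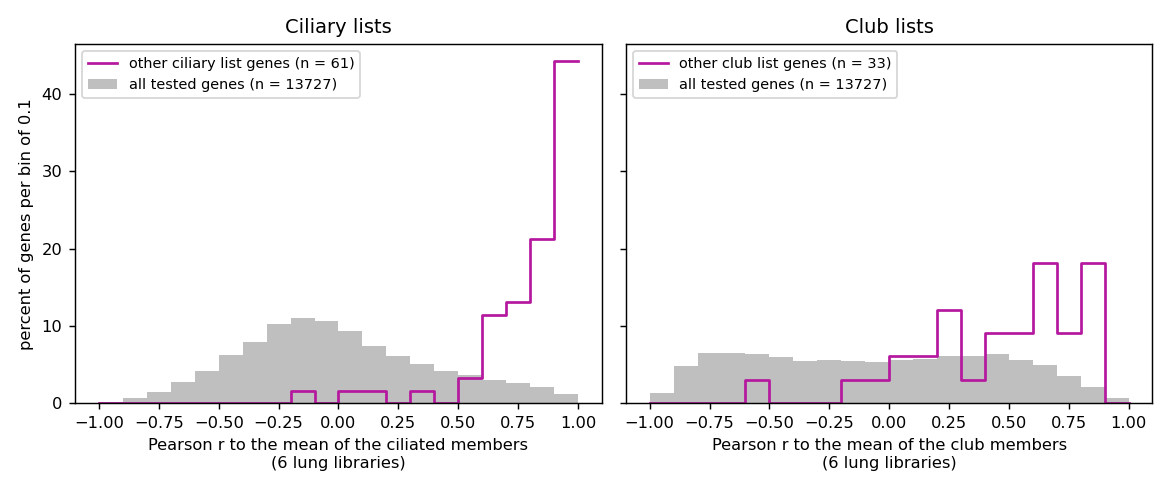
Distribution of Pearson r over the 6 lung libraries between single genes and the mean centred profile of the ciliated genes or of the club genes, for listed genes outside the 10 and for all 13727 genes tested. The 61 listed ciliary genes pile up near 1 (median 0.876), the 33 listed club genes are spread more widely (median 0.524), and all genes centre near 0.

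The other parts of the ciliary machinery were followed in gene lists chosen by function, with members of the 10 counted in the list of their own structure. None of the 61 tested ciliary genes outside the 10 was called in limma, 3 had an unadjusted p below 0.05, and 49 had an estimate above 0 with a median log2 difference of 0.14. Groups without overlap were found for 8 of the 61, beside 14.1% of all genes. Among the spokes and central pair genes, the 10 tested, Rsph1 included, had estimates above 0 with a median of 0.13, and Rsph9, a spoke head protein, was at 12.4 FPKM in wild-type and 15.7 in dGATA lungs (log2 difference 0.31, limma adjusted p = 0.751). Of 10 outer dynein arm genes 8 had estimates above 0 (median 0.19), and of 6 inner arm genes 3 did (median 0.02). Of 9 tektins and doublet-associated genes 8 were above 0 (median 0.21), among them Tekt4, another tektin, at 7.73 FPKM in wild-type and 10.3 in dGATA lungs (log2 difference 0.38, limma adjusted p = 0.751). The ruler and nexin link list had 6 of 7 above 0 (median 0.08), the dynein assembly list 5 of 7 (median 0.10), with the smallest p for Dyx1c1 (0.32, limma adjusted p = 0.675), and the transcription factor list 3 of 7 (median -0.0017). The remaining 12 ciliated cell genes were all above 0 (median 0.24), among them Dynlrb2, a dynein light chain, at 83.9 and 110 FPKM (0.39, limma adjusted p = 0.675).

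The median over the joined ciliary lists depended on single libraries and on scaling, and the separate lists shifted to different degrees. Without wild-type library 3, 28 of the 61 ciliary genes were above 0 and the median was -0.0035. Without dGATA library 3, 34 of 58 were above 0 and the median was 0.03. With each library rescaled to the same summed FPKM (TPM rescaling), 42 of 65 were above 0 and the median was 0.06. The median over all genes was then -0.13. With median-of-ratios scaling, 55 of 61 were above 0 and the median was 0.18, beside 0.009 over all genes. With weights that limma estimates for each library, 7 of the 61 ciliary genes and 3 of the 33 club genes were called higher, but that setting also raised the calls over all genes from 6 to 558 higher and from 7 to 878 lower.

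Among the club lists, 29 of 33 genes outside the 10 had estimates above 0, with a median of 0.14, none was called, 1 had an unadjusted p below 0.05, and the groups did not overlap for 1. That one was Hp, the haemoglobin-binding protein haptoglobin, at 342 FPKM in wild-type and 555 in dGATA lungs (log2 difference 0.70, limma adjusted p = 0.511). Of the secretory list, the 17 members of which include Scgb1a1 and Scgb3a2, 16 were above 0 with a median of 0.32, among them Cldn10, a claudin of club cells (0.37, limma adjusted p = 0.757). In the metabolism list, which includes Cyp2f2, 16 of 19 were above 0 with a median of 0.12. The smallest p there was that of Aldh1a7, an aldehyde dehydrogenase (0.22, limma adjusted p = 0.738). After TPM rescaling 11 of these 19 were above 0 (median 0.02), as were 22 of the 33 club genes outside the 10 (median 0.09). With median-of-ratios scaling these were 18 of 19 (median 0.17) and 31 of 33 (median 0.19). For comparison, in the main fit 11 of 12 general epithelial genes were above 0 (median 0.22) and all 9 alveolar type II genes (median 0.18). So were 4 of 8 alveolar type I genes (median -0.02) and 4 of 10 goblet genes (median -0.08), with none called. Groups did not overlap for 5 of the 12 general epithelial and 4 of the 9 alveolar type II genes, beside 14.1% of all genes. None of the alveolar type I or goblet genes had such groups. An unadjusted limma p below 0.05 was found for 4 general epithelial genes and 1 alveolar type II gene. The goblet list went to 10 of 10 above 0 (median 0.62) without dGATA library 1 and to 0 of 10 (median -0.61) without wild-type library 3, and the alveolar type I list went to 0 of 8 (median -0.27) without dGATA library 1 and to 6 of 8 (median 0.19) without dGATA library 3. Of the leukocyte markers 1 of 7 was above 0 (median -0.35), which became 5 of 7 (median 0.24) without dGATA library 1. Of the eosinophil markers 0 of 7 were above 0 (median -0.78) with 2 called lower, and at most 1 was called when a library was left out.

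In the ST2 high memory Th2 cells the airway genes were at or near 0. Scgb1a1, Scgb3a2, Tekt1 and Dnah5 were listed at 0 in all 6 libraries. Dnah9 reached at most 0.00412 FPKM, Ccdc39 0.0483, Cyp2f2 0.0450 and Tppp3 0.273. Of the 10, Foxj1 and Rsph1 had values above 1 FPKM.

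Rsph1 was the 1 airway gene of the 10 that passed the filter on low values in these cells, and it was higher with IL-33. It was at 1.17, 1.29 and 1.87 FPKM with IL-2 and at 2.51, 1.96 and 2.43 with IL-2 plus IL-33, so the groups did not overlap. The means were 1.44 ± 0.374 and 2.30 ± 0.298 FPKM (SD, n = 3 each), a log2 difference of 0.44 with an SE of 0.139 (limma adjusted p = 0.0406). In this comparison 42.1% of the 10296 genes tested were called and 56.7% had groups that did not overlap, so a single call among these genes is no result particular to Rsph1. The call was lost without the filter (limma adjusted p = 0.0713) and when any one of 5 of the 6 libraries was left out (limma adjusted p between 0.060 and 0.129). It was kept when the third IL-2 library was left out (0.0157). Counting these, the call was lost in 6 of 11 alternatives and kept in 5.

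Foxj1, which also has known roles in holding T cells quiescent, was at 1.14, 0.826 and 2.92 FPKM in the Th2 cells with IL-2 and at 0.165, 0.0510 and 0.256 with IL-2 plus IL-33. It was below the filter, since only 2 libraries reached 1 FPKM, and its groups did not overlap. The means were 1.63 ± 1.13 and 0.157 ± 0.103 FPKM, and the exact two-sided permutation p was 0.1, the smallest possible. Without the filter the log2 difference was -1.11 with a limma adjusted p of 0.0404, in a fit that called 26.4% of 16306 genes. The call was lost without the first IL-2 library (limma adjusted p = 0.0725) or without any one of the IL-33 libraries (0.107, 0.12 and 0.0693), and held without the second or the third IL-2 library (0.0413 and 0.0132).

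**Figure D5:**
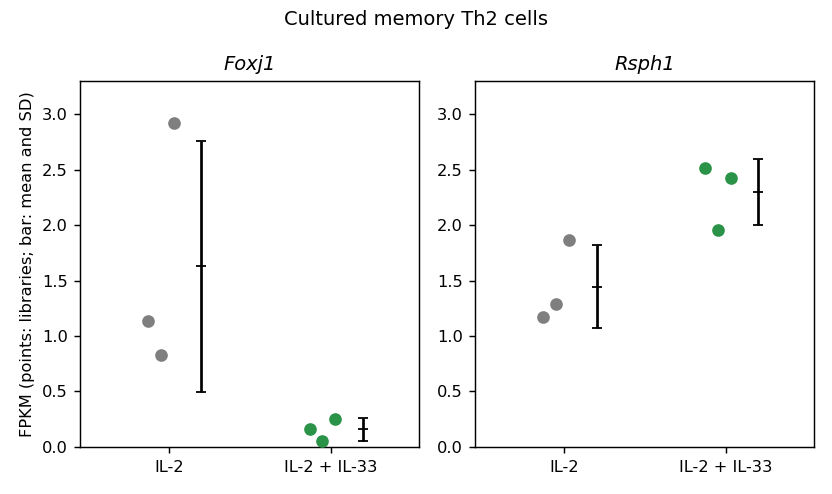
FPKM of Foxj1 and Rsph1 in the 6 Th2 libraries, as points for each library with the mean and SD of each group of 3. Foxj1 lies lower with IL-2 plus IL-33 (0.0510 to 0.256) than with IL-2 alone (0.826 to 2.92), and Rsph1 lies higher (1.96 to 2.51 against 1.17 to 1.87).

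Most of the ciliary list was below the filter in the Th2 cells, where 12 of 68 genes outside the 10 were tested, with 4 called higher and 3 called lower with IL-33, beside 42.1% of all genes called. The higher calls were 2 without any one of the IL-33 libraries and 2 with the filter at 5 FPKM. Myb, a transcription factor needed early in multiciliated cells, rose from 0.693 to 6.25 FPKM (log2 difference 2.13, limma adjusted p = 0.00037) and reached 1 FPKM in 1 of the IL-2 libraries, and Ezr, the membrane linker ezrin, from 64.6 to 82.6 (0.36, limma adjusted p = 0.0473). Dnajb13, a radial spoke protein, was at 1.31 and 2.56 FPKM (log2 difference 0.62, limma adjusted p = 0.00681). Spef2, a central apparatus protein, was at 0.767 and 1.93 FPKM and passed the filter through the IL-33 libraries alone, so its call among the 4 was favoured by the filter. Wdr78, an axonemal dynein intermediate chain, fell from 4.87 to 1.91 FPKM (-0.998, limma adjusted p = 0.00208), and Heatr2, a dynein assembly factor, from 11.6 to 6.25 (-0.81, limma adjusted p = 0.00545). Rfx1 fell from 8.68 to 5.79 FPKM (-0.51, limma adjusted p = 0.00553). Of the club lists, 3 genes were tested, and Nupr1, a stress-response gene, rose from 6.97 to 43.4 FPKM (2.39, limma adjusted p = 0.00446), while Por, the P450 reductase, fell from 39.2 to 25.5 (-0.60, limma adjusted p = 0.00235).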

How the data were processed

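The authors deposited 1 gene table of FPKM values for each library. Bowtie 0.12.8, TopHat 1.3.2, Cufflinks 2.0.2 and the build mm10 are named in the submitters' processing notes, and the labels' protocols name a stranded mRNA kit. Depth in reads is unknown, so no interval from counts is given. FPKM of the 23746 entries was summed per symbol (240 symbols had several entries), and log2(FPKM + 1) was fitted with limma 3.58.1 (R 4.3.3, trend option) for genes that reached 1 FPKM in 3 or more of 6 libraries, separately in lung and Th2 cells, with Benjamini-Hochberg adjustment over all genes tested and a threshold of 0.05. The script was tested on simulated data. Exact permutation tests were two-sided.

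The members and gene lists were chosen with earlier results of these data known. Named are all 10 members, up to 3 genes per list with the smallest p, and the 8 genes most like each profile. Genes named for the lowest r, for r above 0.8, as checks or as called list genes in Th2 cells were chosen after their values were seen. Alternatives varied the pseudocount, filter, scaling, library weights, replicate block, libraries in the fit and library left out. Those without the trend option, without Scgb1a1 in the scaling, and for Foxj1 without the filter were added after the data were seen. Promoters came from the RefSeq table (GRCm38.p6), and those of 5 of the 10 members were searched, with chromosome 18 left out.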

Additional observations from a re-analysis of the deposited data

How the results depend on the processing

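No airway gene was called in the lung under any of 16 alternatives (15 for Dnah5 and Dnah9), and the lowest limma adjusted p was 0.0529, for Tekt1 with library weights. The estimates of Tekt1, Tppp3, Rsph1, Scgb1a1, Scgb3a2 and Cyp2f2 stayed above 0 in these alternatives, while the sign turned in 3 for Ccdc39, 2 for Dnah5, 1 for Dnah9 and 1 for Foxj1. Over all genes, 6 were higher and 7 lower in dGATA lungs. These counts were 558 and 878 with library weights, 19 and 77 in a fit over 12 mouse libraries, and 0 to 3 and 0 to 6 with a library left out. With a filter at 5 FPKM, 4 were lower. In the Th2 cells, with 1680 genes higher and 2651 lower under IL-33, 1636 were lower after TPM rescaling (2048 higher) and 1986 with median-of-ratios scaling (2108 higher), 4050 were lower with library weights, and leaving out a library gave 1009 to 1540 higher and 1482 to 3122 lower. The median log2 difference over all genes there was -0.11, and -0.01 after either rescaling. The cause of these shifts was not tested.

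With the replicate number as a block, 2 genes were higher and 1 lower in dGATA lungs and no airway gene was called. Deviations from the group means correlated at -0.286, -0.116 and -0.243 between lung libraries with numbers 1, 2 and 3, so none of these correlations was positive. Deviations within groups of 3 sum to 0, so these values are not independent. They do not settle whether libraries of the same number belong together. No paired analysis was possible for the Th2 cells because the groups share no replicate number and the labels do not say which libraries belong together.

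With 3 libraries a group and no counts, the half-widths of the lung 95% intervals were 0.374 to 0.669 on the log2 scale for the ciliated genes. For the club genes they were 0.677 for Cyp2f2, 1.29 for Scgb3a2 and 1.62 for Scgb1a1. The width for Scgb1a1 came from the trend over expression level. Without that trend its interval was 0.02 to 0.63 (limma adjusted p = 0.708). Differences within the half-widths could not be told from 0 in this fit.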
